A study of Nicotiana benthamiana with 12 samples.

Results

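Seedlings of the Nicotiana benthamiana line labelled pent1 were compared with wild-type (WT) seedlings while both were exposed to abscisic acid (ABA). The comparison used 6 of the 12 RNA-seq libraries of the study, 3 of pent1 and 3 of WT, all from whole seedlings given 10 µM ABA for 3 h. The other 6 libraries, 3 of each genotype, came from seedlings given 0.1% DMSO (mock) for the same time, and serve here as libraries in which a difference can be looked at again. The labels place both genotypes in the LAB strain. All seedlings were moved into liquid medium 10 days after germination and stayed there for 10 days before treatment. The gene or genes altered in pent1, and whether it is 1 line or several, were not stated in the sources used here, so no targeted gene could be checked. Of 45796 gene IDs, 33170 (72.4%) passed the filter on low counts in these 6 libraries and were tested. The counts of WT and pent1 came in separate deposited tables. Genotype therefore coincided with the deposited table. Anything that set the tables apart, such as how the plants were grown or the reads were sequenced and counted, cannot be told apart from an effect of pent1.

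ABA is a plant hormone made in greater amounts under water shortage and during seed maturation. In land plants it is bound by soluble receptors of the PYR/PYL/RCAR family, which then inhibit a group of protein phosphatases and so release protein kinases of the SnRK family. These kinases act on transcription factors and ion channels, closing stomata and changing the transcription of many genes. N. benthamiana is an allotetraploid, so many of its genes exist as near-identical pairs, and reads of 1 copy may have been counted for the other. The deposited tables give gene IDs without names or products, so genes are described here by level, size of difference and behaviour, and the tissue label could not be checked against marker genes.

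The 6 ABA libraries held 18217443 to 19678708 counts, with all 3 pent1 libraries larger than the 3 WT libraries. The first principal component of these libraries held 67.3% of the variance and separated the genotypes. The second held 16.4% and set pent1 ABA replicate 3 (-39.6) apart from pent1 ABA replicates 1 and 2 (25.4 and 10.7), whereas the WT libraries lay between -6.01 and 5.77. The biological coefficient of variation was 0.140 in pent1 ABA and 0.0639 in WT ABA. Several counts below that could rest on pent1 ABA replicate 3 are therefore also given without it. Others were not recomputed, among them those at 2-fold, 8-fold and 16-fold, of abundant genes and by ID number.

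Under ABA, transcript levels differed between pent1 and WT for 8989 of 33170 genes (27.1%), of which 4205 were higher in pent1 (12.7%) and 4784 lower (14.4%), by edgeR's quasi-likelihood test at a Benjamini-Hochberg adjusted p under 0.05. Most of these differences were below 2-fold, with log2 differences (pent1 over WT) centred on 0.59 for genes higher in pent1 and on -0.61 for genes lower, against a median of -0.01 over all genes tested. The 3 libraries of each genotype did not overlap for 97.8% of the higher and 99% of the lower genes, and for 43.5% of all genes tested. The balance of directions was not firm: with upper-quartile factors 4725 genes were higher and 4191 lower, and with all 12 libraries in the fit 5669 and 4982. The total also moved with the libraries. It was 5113, 5591 and 5929 without WT ABA replicates 1, 2 and 3, and 12267 without pent1 ABA replicate 3, of which 8573 had the same call as with all libraries. In whole seedlings, less RNA per cell and fewer cells of the type that holds it cannot be told apart.

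Under ABA, large differences were mostly losses of transcript in pent1, most clearly at 4-fold or more. A 2-fold difference or more was found for 755 higher (2.28%) and 1073 lower genes (3.23%). At 4-fold or more 60 genes remained above WT (0.181%) and 341 below (1.03%), and at 8-fold or more 11 and 222. These counts are of genes called by edgeR's quasi-likelihood test with that size of fitted difference. Without pent1 ABA replicate 3 the counts at 4-fold were 67 higher and 453 lower. In the mock comparison 1380 genes were higher and 916 lower at 2-fold or more, and 178 and 290 at 4-fold or more. From counts summed over each group, raising any group total under 3 counts to 3, 4 genes were at least 16-fold higher in pent1 and 143 at least 16-fold lower, out of all genes in the tables and without a test.

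**Figure D1:**
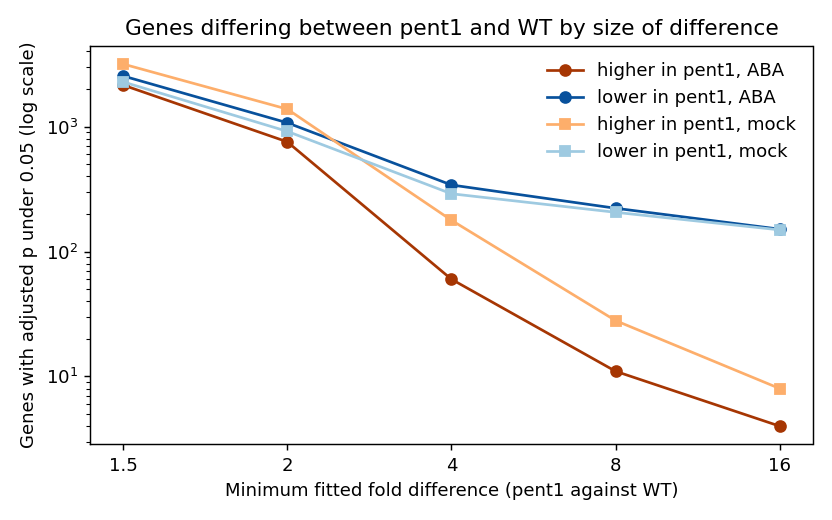
Number of genes (log scale) called different between pent1 and WT at each minimum fold difference, under ABA (circles) and under mock (squares), by direction. Under ABA the lower genes go from 2543 at 1.5-fold to 151 at 16-fold, whereas the higher genes go from 2150 to 4.

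The strongly reduced genes were mostly of low level in WT. Levels are given in CPM, counts divided by the scaled library size and set to a common total. In WT ABA the 341 genes at least 4-fold lower in pent1 had a median of 2.33 CPM, with 62 at 10 CPM or more and 9 at 100 CPM or more, against a median of 10.4 CPM over all tested genes. A gene near 0 in pent1 can pass the filter only through its WT level.

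Among abundant transcripts, with an average log2 CPM of 8 or over, 60 of 398 genes were higher in pent1 (15.1%) and 73 lower (18.3%), against 12.7% and 14.4% of all genes tested. These differences lay between log2 values of -2.75 and 1.49, and only 5 of the higher and 8 of the lower genes reached 2-fold. Of the 133 abundant genes called under ABA, 98 (73.7%) had a call in the same direction under mock, against 5120 of 8989 (57%) over all genes called. Together the 398 genes took 30.8% ± 1.27 of all counts in WT ABA, and their share in pent1 ABA was 31.0% ± 1.46 (SD, n = 3).

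The genes with the largest differences among those tested were picked by a rule given with the processing. NbL16g02030 had 0.710, 0.425 and 0.569 CPM in the WT ABA libraries and 15.9, 13.4 and 14.1 CPM in those of pent1. The summed level was 25.5 times higher in pent1, with a log2 difference of 4.62 (SE 0.19, edgeR adjusted p = 5.52e-08). NbL03g18030 had 0.491, 0.319 and 0.512 CPM in WT ABA and 8.17, 8.67 and 16.2 CPM in pent1 ABA. Its pent1 libraries differed among themselves, replicate 3 being the highest, but all lay above WT, by a log2 difference of 4.59 (SE 0.38, edgeR adjusted p = 2.26e-05). Without pent1 ABA replicate 3 it was 4.21. In the mock libraries, which the choice did not use, both genes were again above 10 CPM on average in pent1, at 17.6 ± 2.22 and 11.6 ± 1.46 CPM, and below 1 CPM in WT, at 0.578 ± 0.304 and 0.756 ± 0.0636 CPM (SD, n = 3).

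At the other end, NbL06g21130 had 92, 78 and 92 counts in the WT ABA libraries and none in the 3 of pent1. With pent1 set to a floor of 3 counts over the group it was at least 91.0-fold lower there (edgeR adjusted p = 1.61e-06). NbL13g24800 had 91, 64 and 86 counts in WT ABA and 0, 1 and 0 in pent1 ABA. From that single count, in replicate 2, the WT level was 251.1 times that of pent1, with counting error alone allowing 44.6 to 9960 times at 95% confidence, and with pent1 set to 3 counts it was 83.7 times (edgeR adjusted p = 1.15e-06). The rule that picked these 4 genes required that WT and pent1 ABA libraries did not overlap. Under mock the 3 pent1 mock libraries held 1 count of NbL06g21130 and 2 of NbL13g24800, against 242 and 228 in WT mock.

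**Figure D2:**
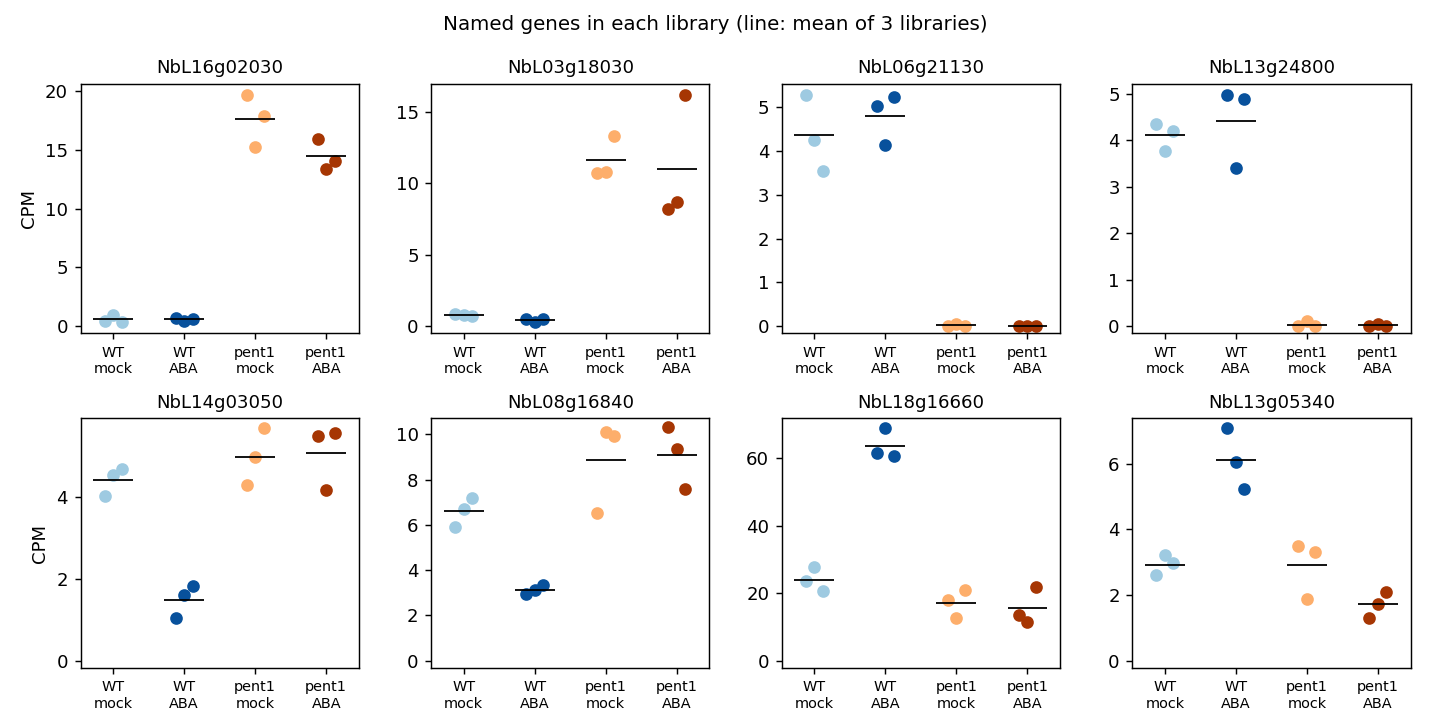
Level of the 8 named genes in each of the 12 libraries, in CPM on a linear scale. Each point is a library and each line the mean of 3. In the upper row the genotypes are apart under both treatments, and in the lower row the WT ABA libraries stand apart from the other groups.

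A group of 84 genes was nearly silent in pent1 under ABA, meaning 3 or fewer counts over its 3 libraries and a level at least 16-fold higher in WT once pent1 was set to 3 counts. Their summed counts were 2339, 2103 and 3181 in the WT ABA libraries and 34, 47 and 38 in those of pent1. Levels in WT ABA were low, from 0.859 to 5.01 CPM with a median of 1.39 CPM. Of the 84 genes, 74 passed the filter, and all 74 that did were called lower by edgeR's quasi-likelihood test, as the way they were chosen requires. A total of 23 had no count in pent1 ABA at all.

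The mock libraries, which had no part in that choice, gave a split in the same direction. The 84 genes held 2119, 2273 and 1942 counts in WT mock and 63, 76 and 45 in pent1 mock, so that the genotypes did not overlap there either. In pent1 mock 72 of them again had 3 or fewer counts, 44 of the 84 also met the 16-fold limit there, and 16 had no count in any of the 6 pent1 libraries. In the other direction a single gene qualified, NbL03g06270, named here after its values were seen. It had no count in the 3 WT ABA libraries and 10, 34 and 83 counts in those of pent1, at least 40.6-fold higher against a floor of 3 counts, but it did not pass the filter and was not tested. Without pent1 ABA replicate 3 there were 67 genes nearly silent in pent1 and 2 in WT. Less transcript of these genes in pent1 and a difference in how the 2 tables were counted cannot be told apart here.

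**Figure D3:**
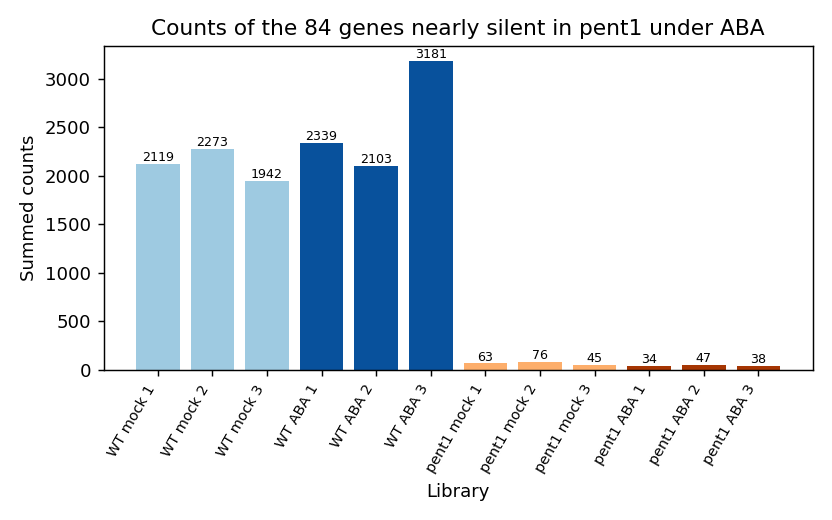
Summed counts, in each of the 12 libraries, of the 84 genes chosen as nearly silent in pent1 under ABA. WT libraries hold 1942 to 3181 counts and pent1 libraries 34 to 76, with mock and ABA alike.

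Fewer genes had any count in pent1. At least 1 count was found for 38493, 38512 and 38483 genes in the WT ABA libraries and for 37694, 37839 and 37774 in those of pent1. The groups did not overlap, with a mean difference of -727 genes (exact two-sided permutation p = 0.1, the smallest that 3 against 3 libraries allow), although the pent1 libraries were the larger ones. Thinned to 18199288 counts each, they differed by -817 genes (exact permutation p = 0.1). With a minimum of 10 counts the groups overlapped, at 32945 ± 74 genes for WT and 32941 ± 44.3 for pent1 (SD, n = 3, exact permutation p = 1). The mock libraries also did not overlap at a minimum of 1 count. They had 38308, 38359 and 38340 genes in WT and 37937, 37851 and 37692 in pent1.

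The mock libraries showed how much of the genotype difference under ABA was also there without the hormone. Comparisons under mock and ABA share no library, although both set the pent1 table against the WT table. Under mock 11592 of 33189 genes were called (34.9%), 18.4% higher and 16.5% lower in pent1. Of the 4205 genes higher under ABA, 2727 (64.9%) were also called higher under mock, 1426 had no call there and 16 were called lower. Of the 4784 genes lower under ABA, 2393 (50%) were also called lower under mock, 2161 had no call and 91 were called higher. The rest, 36 and 139 genes, did not pass the filter under mock. The 5120 genes called in the same direction became 5505 without pent1 ABA replicate 3.

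**Figure D4:**
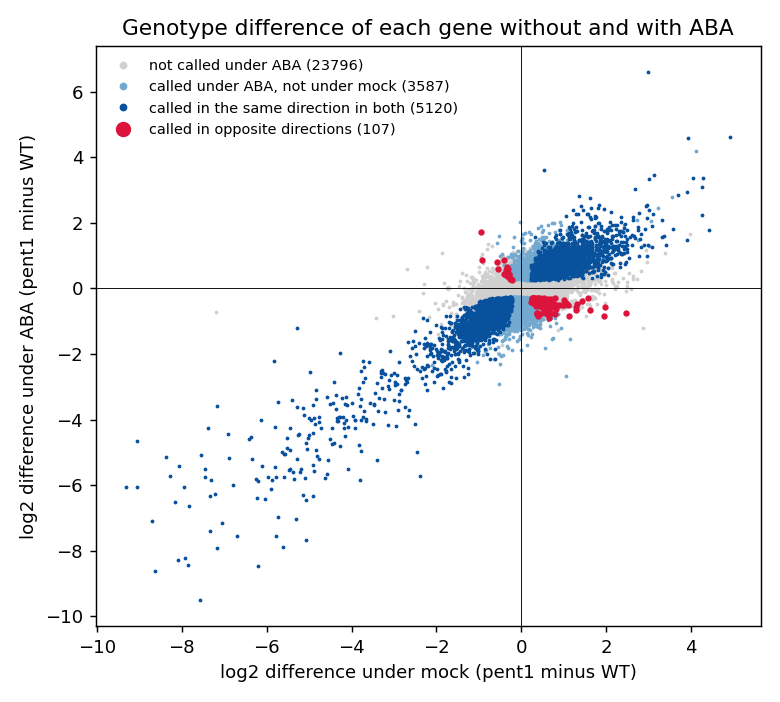
Log2 difference between pent1 and WT under mock (horizontal) and under ABA (vertical) for the 32610 genes tested in both, each point a gene. Points lie along the rising diagonal, more widely spread at the lower left, where pent1 has little or no transcript under both treatments.

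Large differences under mock were mostly found under ABA too. Of 290 genes called at least 4-fold lower in pent1 under mock, 259 also passed the filter under ABA. Of these 259, 251 (96.9%) were called lower under ABA and none higher, against 14.2% and 12.8% of all genes tested in both. The median of their log2 differences was -4.10 with mock and -3.75 with ABA. In the single pent1 ABA libraries 253, 254 and 258 of them lay below all 3 WT ABA libraries, against 36%, 35% and 37.1% of all genes tested in both. Genes at least 4-fold higher under mock numbered 178, of which 160 passed the filter under ABA. Of these 160, 132 (82.5%) were called higher under ABA and 1 lower. The corresponding medians were 2.35 with mock and 1.32 with ABA, and 151, 146 and 148 of them lay above all WT ABA libraries, against 42.9%, 41.1% and 38.2% of all genes. Since these genes were chosen on the mock libraries, their mock values are inflated and only the ABA values are free of that choice. Without pent1 ABA replicate 3 the medians under ABA were -3.85 (277 genes) and 1.28 (162 genes).

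Chosen instead under ABA, the sizes under mock did not show such a drop among genes tested in both. Of 60 genes at least 4-fold higher under ABA, 54 were tested in both, with medians of 2.36 under ABA and 2.35 under mock. Of 341 genes at least 4-fold lower, 278 were tested in both, with medians of -3.58 and -3.79. Calls in the same direction under mock were made for 85.2% and 96.4% of the genes tested in both. The share of all genes called higher and lower there was 18.4% and 16.5%. A gene near 0 in pent1 under mock passed the mock filter only through its WT mock level. For such genes a large mock difference was therefore partly required. Across the 32610 genes tested in both, the log2 differences gave a Pearson's r of 0.784 and a Spearman's rho of 0.598, as a description, since genes are not replicates and the points share the 12 libraries and both tables.

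The share of all counts in these genes shows their weight in the transcriptome. The 755 genes at least 2-fold higher in pent1 under ABA took 0.866% ± 0.0169 of counts in WT ABA and 2.17% ± 0.141 in pent1 ABA, and 0.856% ± 0.0216 and 2.27% ± 0.168 in the mock libraries of WT and pent1 (SD, n = 3). For the 1073 genes at least 2-fold lower the share was 2.55% ± 0.0431 (WT) and 0.858% ± 0.0124 (pent1) under ABA, and 2.42% ± 0.0202 and 0.966% ± 0.0756 under mock. The genes were chosen on the ABA libraries, so only the mock values are independent of the choice. In these the lowest and highest pent1 libraries were at 2.15% and 2.46% for the first set and at 0.878% and 1.01% for the second, apart from WT in both cases.

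For some genes the genotype difference itself changed with ABA. The difference under ABA minus that under mock was tested on all 12 libraries and called for 1145 of 34026 genes (3.37%). Of the 8989 genes called under ABA, 590 were among these, 155 with a positive value and 435 with a negative one. With upper-quartile factors the split was 234 and 351, and with library size alone 82 and 696. The number was 274, 215 and 248 without WT mock replicates 1, 2 and 3, and 176, 187 and 234 without WT ABA replicates 1, 2 and 3. Leaving out pent1 mock replicate 2 or 3 gave 915 or 318, and leaving out pent1 ABA replicate 1, 2 or 3 gave 381, 249 or 3197. The size of this group is thus not settled by these libraries, and the classes below are descriptions.

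In 281 genes pent1 and WT differed under ABA with no call under mock and with a call for the change in the difference. A response to ABA that differed between pent1 and WT was thus part of how they were chosen, on these same libraries. Among the 173 of them that were lower in pent1 under ABA, the median log2 level relative to WT mock was 0.51 ± 0.03 for WT with ABA, 0.13 ± 0.11 for pent1 without it and -0.07 ± 0.14 for pent1 with it (SD, n = 3). The single pent1 ABA libraries stood at -0.21, -0.07 and 0.07, so the WT level was higher with ABA while pent1 ABA lay around the level of WT mock. By group means, 112 of the 173 genes were above mock in WT ABA and below mock in pent1 ABA, and 60 were above mock in both. The 108 genes higher in pent1 under ABA had the mirrored pattern, at -0.45 ± 0.02 for WT with ABA, -0.09 ± 0.03 for pent1 without it and 0.07 ± 0.10 for pent1 with it. With upper-quartile factors 140 genes were lower and 150 higher, and with library size alone 322 and 57. The total was 59, 76 and 95 without WT ABA replicates 1, 2 and 3, and 92, 76 and 88 without those of WT mock. Leaving out pent1 mock replicate 1, 2 or 3 gave 146, 534 or 111, and leaving out the same of pent1 ABA gave 143, 97 or 2109.

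The 2 highest and 2 lowest of these genes were picked by the same kind of rule, which itself asked for little difference under mock and a call under ABA. NbL18g16660 had 61.5, 68.8 and 60.7 CPM in WT ABA and 13.5, 11.5 and 21.7 CPM in pent1 ABA. WT mock stood at 24.0 ± 3.59 CPM and pent1 mock at 17.2 ± 4.20 CPM (SD, n = 3). The log2 difference under mock was -0.48 (SE 0.18, edgeR adjusted p = 0.0631), close to a call. Under ABA the log2 difference reached -2.07 (SE 0.20, edgeR adjusted p = 9.19e-05). The change in the difference was -1.55 (SE 0.32, edgeR adjusted p = 0.0283), a call that 9 of the 12 single libraries could end by being left out, while the change itself stayed between -1.37 and -1.87. The edgeR adjusted p was 0.0716, 0.0523 and 0.0702 with WT mock replicates 1, 2 and 3 left out in turn, and 0.0645, 0.0724 and 0.0600 with those of WT ABA left out. Leaving out pent1 mock replicate 1 or 3 gave edgeR adjusted p-values of 0.0618 and 0.0601, and leaving out pent1 ABA replicate 1 gave 0.0782.

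NbL13g05340 had 7.10, 6.05 and 5.23 CPM in WT ABA and 1.32, 1.75 and 2.1 CPM in pent1 ABA, with mock levels of 2.93 ± 0.304 CPM in WT and 2.90 ± 0.882 CPM in pent1 (SD, n = 3). The log2 difference was -0.01 under mock and -1.87 (SE 0.20) under ABA. The change in the difference was -1.82 (SE 0.32, edgeR adjusted p = 0.00487).

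NbL14g03050 was the opposite case, with 1.04, 1.59 and 1.82 CPM in WT ABA and 5.48, 4.16 and 5.54 CPM in pent1 ABA. Mock levels were 4.40 ± 0.337 CPM in WT and 4.97 ± 0.691 CPM in pent1 (SD, n = 3). The log2 difference was 0.17 under mock and 1.73 (SE 0.22) under ABA. The change in the difference was 1.59 (SE 0.27, edgeR adjusted p = 0.00409). NbL08g16840 had 2.95, 3.13 and 3.36 CPM in WT ABA and 10.3, 9.34 and 7.58 CPM in pent1 ABA, with mock levels of 6.61 ± 0.646 and 8.86 ± 2.02 CPM. Its log2 difference under mock was 0.42 (SE 0.16, edgeR adjusted p = 0.0586), also close to a call. The change in the difference was 1.11 (SE 0.24, edgeR adjusted p = 0.0192). The edgeR adjusted p of this change was 0.0530 or 0.0600 when WT mock replicate 2 or 3 was left out, and 0.0626 or 0.0549 when WT ABA replicate 1 or 2 was, so that the call was lost. In those 4 fits the change was between 1.05 and 1.11.

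Of the 32610 genes tested in both, 107 were called in opposite directions under the 2 treatments. Of these, 91 were higher in pent1 under mock and lower under ABA, and 16 the reverse. The median log2 level of the 91 genes, relative to WT mock, was 1.33, 1.35 and 1.20 in the WT ABA libraries, 0.52, 0.41 and 0.54 in pent1 mock, and 0.88, 0.74 and 0.93 in pent1 ABA. The pent1 libraries thus lay between WT mock and WT ABA under both treatments, and pent1 ABA lay above pent1 mock. That pent1 lay above WT under mock and below it under ABA was how these genes were chosen, on these same libraries. None of the 91 differed by 2-fold under ABA, and their log2 differences had medians of 0.53 with mock and -0.46 with ABA. The 16 genes stood at -0.50 ± 0.09 for WT with ABA, and pent1 went from -0.35 ± 0.05 without ABA to -0.01 ± 0.15 with it (SD, n = 3). The split depended on scaling, at 74 and 24 with RLE factors, 50 and 49 with upper-quartile factors and 104 and 6 with library size alone. The total was 69 and 61 without WT mock replicates 2 and 3, 37, 38 and 49 without WT ABA replicates 1, 2 and 3, 171 without pent1 mock replicate 2, and 53 and 427 without pent1 ABA replicates 2 and 3.

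**Figure D5:**
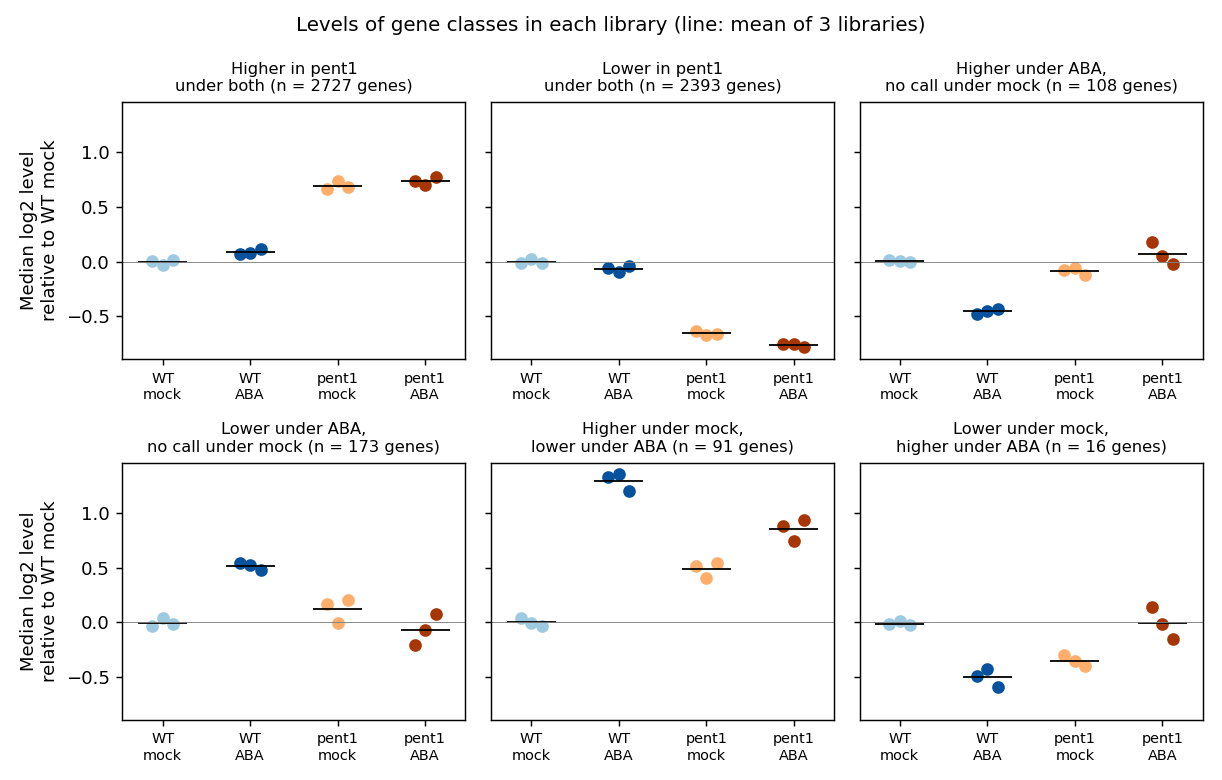
Median log2 level, relative to WT mock, of 6 classes of genes called under ABA, in each library (points), with the mean of 3 libraries (line). The classes were chosen by the genotype differences in these same libraries. In the classes called in the same direction under mock, pent1 stands apart from WT under both treatments, in the classes without a call under mock WT ABA stands apart from the rest, and in the class of 91 genes pent1 lies between WT mock and WT ABA.

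Where the difference had the same direction under both treatments and its change was called, it was mostly smaller under ABA for genes higher in pent1. Of 160 such genes higher in pent1, 150 had a smaller difference under ABA and 10 a larger one. This split was not recomputed with other scaling or with a library left out. Among all 590 genes with a called change, positive and negative values went from 155 and 435 to 234 and 351 with upper-quartile factors. The 150 genes had median log2 differences of 1.59 under mock and 0.62 under ABA. A smaller difference under ABA was itself part of how they were chosen, on these same libraries. Relative to WT mock they stood at 0.99 ± 0.06 for WT with ABA, and at 1.52 ± 0.09 and 1.67 ± 0.06 for pent1 without and with it (SD, n = 3), so that WT came nearer to a level that pent1 had without ABA. Of 40 such genes lower in pent1, 20 had a smaller difference under ABA and 20 a larger one.

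Called genes were found under every ID number. Each ID holds a number from 00 to 19, and the files do not say what it stands for. Among IDs numbered 01 to 19, 11.3% to 14.1% of tested genes were higher in pent1 and 12.8% to 15.9% lower. Number 00, of whose 469 IDs only 105 (22.4%) were tested, had 16.2% higher and 18.1% lower. The 84 genes nearly silent in pent1 fell under all 20 numbers, at most 10 under any of them, with 3 pairs of consecutive IDs. Of the genes at least 2-fold higher, 5.17% were followed in the order of tested IDs by another such gene, against 2.28% of all tested genes. The share was 4.38% against 3.23% for the genes at least 2-fold lower. The longest run of tested IDs at least 2-fold different in 1 direction held 5 genes, from NbL16g01060 to NbL16g01110, singled out after their values were seen. Their levels were 0.290 to 0.533 CPM in WT ABA and 1.14 to 2.56 CPM in pent1 ABA, with log2 differences of 1.06 to 2.39. Neighbouring genes of near-identical sequence could share reads, which was not tested.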

How the data were processed

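The authors deposited 1 table for each genotype, holding unnormalized counts of reads for each gene ID as whole numbers, and the tables were joined by ID. Columns were assigned by the titles and descriptions in the labels. A strand-specific kit for mRNA was used, per the labels' protocols. FastQC, cutadapt, STAR and DESeq2 are named in the submitters' processing notes. The read counter, genome build, annotation, use of strand and treatment of reads with several matches were not stated in the sources used here. Whole-seedling libraries held about the same depth, and pairs of ABA replicates differed by more than sampling noise (chi-square per degree of freedom 2.03 to 16.5 for genes whose counts in a pair reached 20), and all were kept as replicates. The labels call the replicates independent and biological.

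The main test was edgeR 4.0.16 (R 4.3.3), the quasi-likelihood F-test with robust dispersion, TMM scaling and the default filter (count minimum 10), fitted on the 6 ABA libraries, with Benjamini-Hochberg adjustment over all tested genes and a threshold of 0.05. Mock libraries were fitted alike, and the change in the difference on all 12. Positive values stand for higher in pent1. Standard errors are those implied by the F statistic. CPM use TMM sizes over 12 libraries, and class levels are log2(CPM + 0.5). Intervals and floors cover counting error only. The tests were tried on simulated data that had the same spread in every library. The pent1 ABA libraries varied more than those of WT ABA, which that trial did not cover.

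Named genes were the 2 highest and 2 lowest by log2 difference among genes called under ABA whose libraries did not overlap and whose average log2 CPM was 1 or more, and the same number, without the overlap condition, among genes also called for the change in the difference, with no call and a log2 difference within 0.5 of 0 under mock. Members, lists and rules were chosen with earlier results of these data known. Lists of ABA signalling genes and cell type markers were not used here, since no table pairs IDs with names. Alternatives were RLE and upper-quartile factors, library size alone, DESeq2 1.42.0, limma-voom (limma 3.58.1), other filters, a 1.5-fold minimum, all 12 libraries in the fit, the replicate number as a block, and each library left out.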

Additional observations from a re-analysis of the deposited data

Results flagged for a closer look

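Among the 8989 genes called under ABA, 590 had a called change in the genotype difference between mock and ABA (edgeR, adjusted p under 0.05). Over all genes tested for this change 3.37% had such a call. The number of 590 ran from 176 to 3197 with a library left out, so its size is not settled. Among the named genes, this change was 1.59 on the log2 scale for NbL14g03050 and 1.11 for NbL08g16840. It was -1.55 for NbL18g16660 and -1.82 for NbL13g05340. The call for this change was lost in 4 of 20 alternatives for NbL08g16840 and in 9 of 20 for NbL18g16660. Groups of 3 libraries are too small for a test of single outlying libraries.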

How the results depend on the processing

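The 8 named genes kept the direction and the call of their difference under ABA in all 15 alternatives tried for each. The number of genes called under ABA was 1341 when a 1.5-fold minimum was tested, and 5113 to 12267 with a library left out. Without a filter on low counts 819 genes were at least 4-fold lower and 122 higher (341 and 60 with it). With a library left out these were 346 to 453 and 67 to 89. Genes called in the same direction under mock numbered 3466 to 5505 with a library left out, and 4307 (DESeq2) to 5825 (all 12 libraries) under the other alternatives. Opposite calls ranged from 37 to 427 with a library left out, and from 73 (DESeq2) to 160 (replicate block) otherwise. Genes called under ABA whose difference changed numbered 923 with DESeq2, 937 with the replicate block, and 176 to 3197 with a library left out. Those with no call under mock numbered 552, 479 and 59 to 2109. Genes nearly silent in 1 genotype numbered 85 in all, 24 at a floor of 0 counts, 220 at 8-fold, 31 at 32-fold, and 63 to 103 with a library left out. The difference in genes with a count was -817 after thinning, -3.33 at 10 counts, and -762 to -689.5 with a library left out. Except where a filter, minimum or floor itself changes what is counted, the cause was not tested.

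Whether the replicate numbers pair the libraries was not settled, and the main fit did not use them. Same-numbered ABA libraries had correlations of 0.00746, 0.133 and 0.220 in their deviations from group means. For WT and pent1 ABA libraries with different numbers the correlations ran from -0.218 to 0.112. With the number as a block 9938 genes were called, against 8989 without it. The alternatives for the counts at 4-fold, the opposite calls and the changes with no call under mock were chosen after seeing the data. Low counts limit what can be shown of genes near silence.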
